A study of Mus musculus with 69 samples.

Results

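The comparison was AII+NA against Control in WT VSMC, primary smooth muscle cells of the mouse aorta that carry an intact Egfr gene. Its 8 libraries, out of 69 in the series, were taken by their labels (genotype WT, treatment AII+NA or Control, sample sets G1 to G4), which gave 4 libraries per group and 4 pairs. The study exposed cultured VSMC with and without Egfr, and endothelial cells (EC), to humoral and metabolic stressors of obesity and measured poly(A) RNA by sequencing. All WT VSMC came from male C57BL/6 mice, 1 animal per set, and had been kept without serum before and during the exposure. Control cells received neither agent. AII+NA cells received 30 nM angiotensin II (AII) together with 300 nM of a catecholamine for 24 h. The methods name the catecholamine norepinephrine and the treatment label names it epinephrine, so it is called NA here as in the group label. Albumin was present in every medium, Control included. Both agents were given only together, so their separate effects cannot be told apart. The same 4 animals also gave 4 libraries under HG+FFA (20 mM glucose and free fatty acids, 100 uM by the label and 100 uM of each of oleate and palmitate by the methods) and 4 under ALL (HG+FFA plus AII+NA), which were used to see the hormone effect in a second medium. KO VSMC, in which a Cre under the SM22 promoter deletes a floxed Egfr, gave 4 Control and 4 AII+NA libraries from other animals (sets G5 to G8). Cultures had been passaged up to 7 times, and each set is the culture of a single mouse.

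Angiotensin II acts on smooth muscle mainly through the AT1 receptor, which couples to Gq, phospholipase C and calcium release, while the AT2 receptor is known to oppose many AT1 actions. Norepinephrine contracts the vessel wall through alpha-1 adrenergic receptors, which use the same Gq route, and relaxes it through beta receptors and cyclic AMP. Calcium, RhoA and polymerised actin activate the transcription factor SRF with its coactivator MRTF, and the coactivators YAP and TAZ with TEAD. SRF drives the genes of the contractile apparatus, and YAP and TEAD drive a set of matrix and growth genes.

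The 8 libraries held 27143351 to 37801299 counted reads. Libraries of the same animal resembled each other closely. The deviation of Control and AII+NA from their group means correlated at 0.776 to 0.925 within a set, so every model carried the set as a block. The smooth muscle label was checked against 8 marker genes, none of which was at 0. Their summed level was 343 to 1160 FPM in Control and 807 to 2020 FPM in AII+NA, where FPM is a gene's fragment count divided by the normalised library size in mega-fragments. Acta2 made up most of this sum in each library. EC Control libraries, normalised separately, held 240 to 3940 FPM of the same 8 genes, so this sum does not set VSMC apart from the EC cultures. The 8 adventitial fibroblast markers, none at 0 either, summed to 3090 to 5360 FPM in Control and 2910 to 4320 FPM in AII+NA, so the cultures carried both signatures. Endothelial markers summed to 1.47 to 61.5 FPM in Control and 1.39 to 49.3 FPM in AII+NA, with the highest sum in set 2 in both groups. Leukocyte markers summed to 28.3 to 229 FPM and 34 to 207 FPM, with the T cell marker Cd3e at 0. Adipocyte markers summed to 20.6 to 183 FPM and 36.8 to 193 FPM with Cidec and Lep at 0, and Schwann cell markers to 27.3 to 53.3 FPM and 25.8 to 50.8 FPM. In bulk RNA, fewer cells of a type and less RNA per cell cannot be told apart. Egfr itself was at 265, 308, 414 and 473 FPM in the Control libraries of sets 1 to 4 and at 217, 304, 396 and 346 FPM in AII+NA (log2FC -0.21 ± 0.10, edgeR FDR 0.569).

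Few genes were called after 24 h of AII+NA, and all of them were higher: a receptor and a receptor partner, a contractile kinase, an integrin, a histone deacetylase, a G protein regulator and a BMP. Of 16905 genes tested, 7 (0.0414%) met the criteria of a differentially expressed gene (DEG): FDR values of edgeR and of DESeq2 both under 0.05, a log2FC no smaller than 0.64 in size, 3 FPM or more as the mean of either group, and a gene of the protein-coding or lncRNA class. They were Ramp1, Hdac9, Itga8, Agtr1b, Mylk, Rgs3 and Bmp3. All 7 were higher in AII+NA in 4 of 4 sets, where 9.26% of all genes were. For 5 of them every AII+NA library lay above every Control library, against 0.698% of all genes in that direction. DESeq2 alone would have called 61 genes (0.361%) with the other criteria kept, 57 higher (0.337%) and 4 lower (0.0237%), and 54 of these had an edgeR FDR between 0.0869 and 0.233. That count was 15 without set 2, 92 without set 3 and 21 without set 4. Beyond the calls, 1592 genes (9.42%) had an unadjusted edgeR p under 0.05, with 841 higher (4.97%) and 751 lower (4.44%). The number of DEGs was 48 in a fit of the 8 libraries alone and 56 with no count filter. The calls depended on the sets in the fit. No gene was called without set 1 or without set 2. Without set 3, 13 were called, with 6 of the 7 (all but Bmp3) among them. Without set 4, 1 other gene, none of the 7, was called. All 7 log2FC stayed positive in each case, with edgeR FDR values of 0.0161 to 0.228.

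Of the receptors for angiotensin II, Agtr1b rose, while Agtr1a and Agtr2 passed only DESeq2. Agtr1b, which encodes the second of the 2 mouse AT1 receptors (chr3:20368609-20421348, GRCm39), was at 2.00, 3.45, 2.26 and 3.73 FPM in the Control libraries of sets 1 to 4 and at 5.21, 10.3, 4.30 and 13 FPM in AII+NA. The groups did not overlap, and the largest rise was in set 4. The fitted change was 2.71-fold (log2FC 1.44 ± 0.20 SE, edgeR FDR 0.0229, DESeq2 FDR 1.25e-07, n = 4 pairs). Agtr1a, the main AT1 receptor gene of mouse vessels (chr13:30518942-30566850), stood at 12.1, 12.4, 4.69 and 16.9 FPM in Control and at 16.8, 21, 9.25 and 46.8 FPM in AII+NA. It was higher in every set, although set 3 was low throughout and the groups overlapped. Its log2FC of 0.91 ± 0.18 passed DESeq2 (FDR 0.000782) but not edgeR (FDR 0.106). Agtr2, the AT2 receptor gene (chrX:21350763-21355403), was at 2.40, 10.2, 0.606 and 14.3 FPM in Control and at 1.25, 5.47, 0.124 and 7.90 FPM in AII+NA. It was lower in all 4 sets, with a log2FC of -1.04 ± 0.26 that passed DESeq2 (FDR 0.0158) and not edgeR (FDR 0.167). The annotated transcripts of Agtr1a and Agtr1b share no stretch of 100 bases, and neither gene shares exon bases with another gene. Of 12 genes of the renin-angiotensin list, 11 were tested, and Agtr1b was the only one past the edgeR FDR in this comparison. The list's median log2FC was -0.13, against -0.012 over all genes.

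**Figure D1:**
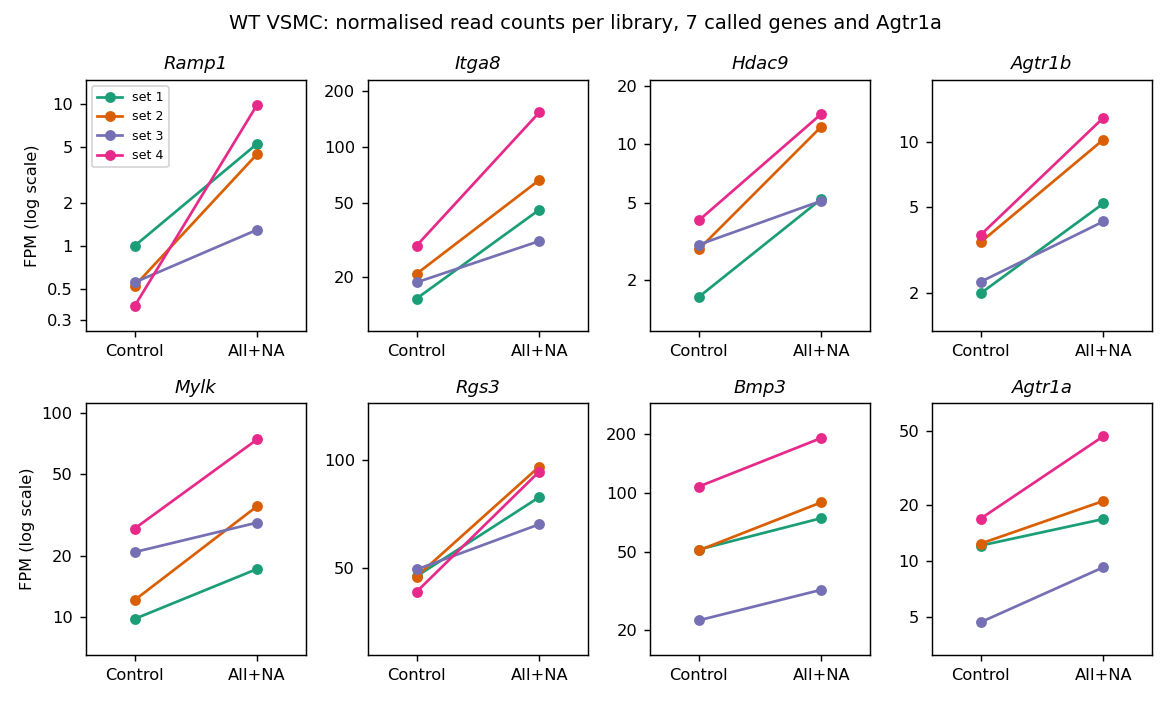
Normalised read count (FPM, log scale) of the 7 DEGs and of Agtr1a in the Control and AII+NA libraries of WT VSMC, with 1 line per set. Every line rises, most steeply in set 4 for Ramp1 (0.376 to 9.88 FPM) and least in set 3 for Rgs3 (49.6 to 66.3 FPM).

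Adrenergic receptor genes did not pass the test. Adra1d, an alpha-1 receptor, was at 40.1, 19.3, 40.1 and 11.4 FPM in Control and 43.4, 20.3, 43.0 and 26.4 FPM in AII+NA. The log2 ratio was 0.07 to 0.11 in the first 3 sets and 1.21 in set 4 (fitted log2FC 0.34 ± 0.19, edgeR FDR 0.641). Adra1b was at 0.890 to 6.71 FPM in Control and 1.62 to 7.67 FPM in AII+NA (log2FC 0.29 ± 0.15, FDR 0.601), and Adra1a was at 0 in all 8 libraries. Among beta receptors, Adrb3 had a log2FC of 0.11 ± 0.18 (FDR 0.893) and Adrb1, at under 1 FPM in every library, one of 0.27 ± 0.38 (FDR 0.872). The 9 tested members of the adrenergic list had a median log2FC of 0.11, and none passed the edgeR FDR or had an unadjusted p under 0.05 (DESeq2 FDR 1.0 for the 4 tested receptors named here).

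A pair of the DEGs, Ramp1 and Rgs3, act directly on receptor signalling. Ramp1 (chr1:91107540-91152918) encodes a receptor activity-modifying protein that makes the calcitonin receptor-like receptor respond to CGRP, a vasodilator peptide. It was barely present in Control, at 0.999, 0.522, 0.553 and 0.376 FPM, and reached 5.25, 4.44, 1.30 and 9.88 FPM with AII+NA. The groups did not overlap, and the single-set ratios ran from 2.14-fold in set 3 to 20.9-fold in set 4. The fitted change was 7.14-fold (log2FC 2.84 ± 0.45, edgeR FDR 0.0282, DESeq2 FDR 0.000782). Rgs3 (chr4:62478084-62622238) encodes a protein that speeds the switch-off of Gq and Gi. Control libraries lay close together at 47.5, 47.4, 49.6 and 43.0 FPM, and AII+NA libraries held 78.9, 96.0, 66.3 and 93.0 FPM with no overlap (1.77-fold, log2FC 0.82 ± 0.12, edgeR FDR 0.0229). It was the only 1 of 14 tested genes of receptor desensitisation to pass, and that list's median log2FC was 0.00. None of 16 tested Gq and phospholipase C genes passed (2 had an unadjusted edgeR p under 0.05, median log2FC -0.07), and none of 20 cyclic AMP and CREB response genes did (4 under 0.05, median -0.07).

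The other 4 DEGs belong to contraction, adhesion, chromatin and growth factor signalling. Mylk (chr16:34565580-34822790), the myosin light chain kinase that starts smooth muscle contraction, was at 9.79, 12.1, 20.8 and 27.1 FPM in Control and at 17.2, 34.9, 29.0 and 74.1 FPM in AII+NA (2.13-fold, log2FC 1.09 ± 0.18, edgeR FDR 0.0441). The sets differed from each other as much as the treatments did, so the groups overlapped although each pair rose. Itga8 (chr2:12110900-12307214), the integrin alpha-8 chain of smooth muscle, was at 15.3, 20.8, 18.7 and 29.5 FPM in Control and at 46.0, 66.5, 31.2 and 154 FPM in AII+NA (3.07-fold, log2FC 1.62 ± 0.25, edgeR FDR 0.0278). The groups did not overlap. Hdac9 (chr12:34097579-34967094), a class IIa histone deacetylase, was at 1.63, 2.87, 3.03 and 4.04 FPM in Control and at 5.21, 12.3, 5.10 and 14.3 FPM in AII+NA (3.07-fold, log2FC 1.62 ± 0.23, edgeR FDR 0.0229). Again no AII+NA library reached down to Control. Bmp3 (chr5:99002268-99032255), a member of the BMP family that antagonises other BMPs, was at 51.6, 51.1, 22.5 and 108 FPM in Control and at 74.6, 89.8, 32.2 and 191 FPM in AII+NA (1.59-fold, log2FC 0.67 ± 0.11, edgeR FDR 0.0467). Its single-set ratios were the most uniform of the 7, between 1.43-fold and 1.76-fold, and its log2FC lay just above the limit of 0.64. Map3k10 and Fmo4, named after their values were seen, passed the edgeR FDR and missed another criterion. Map3k10, a mixed-lineage kinase, rose in all 4 sets by a log2FC of 0.44 ± 0.06 (FDR 0.0229), below the fold limit. Fmo4, a flavin monooxygenase, fell by a log2FC of 1.17 ± 0.20 (FDR 0.0441) as the only gene past the edgeR FDR in the lower direction (0.00592%), from a Control mean just under 3 FPM.

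Among the genes that only DESeq2 called, those named here come from the 10 with the largest positive log2FC and all 4 with a negative one. Selp (P-selectin) had a log2FC of 2.64 ± 0.64. Edn1, which encodes the vasoconstrictor endothelin-1, had 1.5 ± 0.35, and Fgl2, a prothrombinase, had 1.31 ± 0.25. Npas4, an activity-dependent transcription factor, had a log2FC of 2.39 ± 0.56, Map3k7cl one of 2.07 ± 0.42, Gdf6, a BMP-family ligand, one of 1.69 ± 0.32 and Rasl11b, a small GTPase, one of 1.53 ± 0.28. Ccdc42 had 1.45 ± 0.34 and Myom1, a protein of the sarcomeric M band, had 1.26 ± 0.24. The 4 lower genes were Ldb2 (log2FC -1.28 ± 0.29), Agtr2, Omd (-0.73 ± 0.18), which encodes osteomodulin, and Capn6 (-0.65 ± 0.15). All of these had edgeR FDR values of 0.0869 to 0.167 and were not called here.

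The same hormones had also been given to the same 4 cultures on top of HG+FFA, and ALL against HG+FFA uses no library of the comparison above. All 7 DEGs were higher there, each with an unadjusted edgeR p under 0.05, as were 5.73% of all genes in that direction. Agtr1b (log2FC 1.35 ± 0.20, FDR 0.0297) and Bmp3 (0.72 ± 0.11, FDR 0.0390) passed the FDR as well. A fit of those 8 libraries alone also left all 7 with an unadjusted p under 0.05, from 3.35e-05 for Agtr1b to 0.00229 for Rgs3. Ramp1 had a log2FC of 2.73 ± 0.48, Itga8 of 1.32 ± 0.25, Hdac9 of 1.02 ± 0.23, Mylk of 0.87 ± 0.18 and Rgs3 of 0.48 ± 0.12. All 61 genes that DESeq2 called in AII+NA against Control had the same sign in ALL against HG+FFA, a share not counted over all genes. Of these, 53 had an unadjusted edgeR p under 0.05 there, where 5.73% of all genes were higher and 5.09% lower at that p. The animals are the same in both comparisons, so this repeats the treatment and not the mice. ALL against HG+FFA gave 5 DEGs (0.0296%), with 10 without set 1, 1 without set 4 and none without set 2 or set 3. When the 2 hormone effects were compared with each other, no gene passed an edgeR FDR of 0.05 (290 genes, 1.72%, had an unadjusted p under 0.05, and DESeq2 called 0). The widest gap among the 7 was that of Hdac9, whose log2FC was lower by 0.60 ± 0.32 in HG+FFA medium (unadjusted edgeR p = 0.0834).

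**Figure D2:**
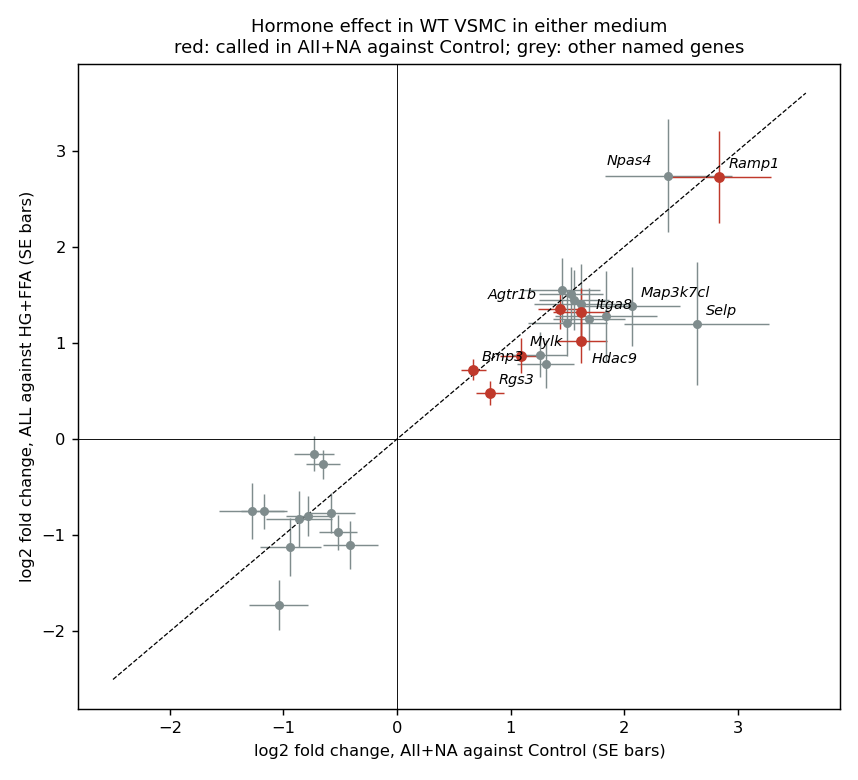
Log2 fold change of AII+NA against Control (x axis) and of ALL against HG+FFA (y axis) with SE bars, for the 7 DEGs (red) and the other named genes (grey), with a dashed line of equal change. The 7 red genes lie above 0 on both axes, and Ramp1 is farthest out at 2.84 and 2.73, while grey genes chosen by the average over both media are not independent of the y axis.

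Averaging both media put 8 libraries with hormones against 8 without, including those described so far. The 8 pairs come from 4 animals. The model treats both pairs of an animal as separate replicates of the hormone effect, so FDR values of the average may be too low. It gave 104 DEGs (0.615%), with 90 higher (0.532%) and 14 lower (0.0828%). Of these, 85 moved alike in all 8 pairs, a share not counted over all genes. All 7 DEGs of AII+NA against Control were among the 104 DEGs. This count depended on sets 2 and 4, with 58 DEGs without set 2 and 23 without set 4, against 160 without set 1 and 140 without set 3. The 104 genes kept their sign whichever set was left out. A group of 19 remained DEGs in each of the 4 cases, and those outside the naming rule are named after their values were seen. Angiotensin receptors stood among these 19, as Agtr1b (log2FC 1.4 ± 0.14, edgeR FDR 0.000358) and Agtr1a (0.93 ± 0.13, FDR 0.00222) rose while Agtr2 fell by 1.38 ± 0.18 (FDR 0.00158). With a set left out, their FDR values were at most 0.00706 for Agtr1b, 0.0256 for Agtr1a and 0.0229 for Agtr2. Avpr1a, which encodes the V1a receptor for vasopressin, a further Gq-coupled vasoconstrictor receptor, rose by 1.08 ± 0.18 (FDR 0.00653). Its levels under AII+NA against Control were 80.3 against 55.5, 50.8 against 19.1, 55.0 against 32.9 and 72.7 against 16.9 FPM in sets 1 to 4. Ramp1 (2.78 ± 0.33), Npas4 (2.57 ± 0.41), Rasl11b (1.52 ± 0.20), Gdf6 (1.47 ± 0.23), Itga8 (1.47 ± 0.18) and Hdac9 (1.32 ± 0.16) were also in this group. So were Rcan2, a calcineurin regulator (1.06 ± 0.19), Hspb7, a small heat shock protein of muscle (1.05 ± 0.17), Atp10a, a lipid flippase (1.04 ± 0.13), Nfil3, a transcription factor (1.02 ± 0.18), Lama5, a laminin chain (0.99 ± 0.13), Mylk (0.98 ± 0.13), Tnc, which encodes the matrix glycoprotein tenascin-C (0.93 ± 0.12), and Myh10, non-muscle myosin IIB (0.87 ± 0.11).

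Of the genes named by size alone, several others depended on single sets. Selp rose by 1.92 ± 0.46 on average (edgeR FDR 0.0282, and 0.321 without set 4), Lgr5, an R-spondin receptor, by 1.56 ± 0.33 (FDR 0.0158, and 0.187 without set 4) and Ccdc42 by 1.5 ± 0.24 (FDR 0.00492, and 0.122 without set 4). Selp and Lgr5 also missed the FDR without set 2 (0.0568 and 0.0577). Map3k7cl, by 1.72 ± 0.30, and Ankrd1, by 1.52 ± 0.29, stayed under 0.05 without set 4 (FDR 0.0207 and 0.0424) but not without set 2 (FDR 0.0502 and 0.0642). Among the lower genes, Aspn, a small matrix proteoglycan, fell by 1.03 ± 0.20, Fmo4 by 0.96 ± 0.13, Kcnj8, a subunit of the ATP-sensitive potassium channel, by 0.85 ± 0.20, Syndig1 by 0.79 ± 0.15, Egr3, an immediate early transcription factor, by 0.75 ± 0.17, Bmper, a BMP-binding protein, by 0.74 ± 0.12, and Col6a3 by 0.67 ± 0.15. Their edgeR FDR values were 0.00234 to 0.0311, and all 7 were above 0.05 without set 4. Aspn, Kcnj8, Egr3 and Col6a3 were also above 0.05 without set 2 (FDR 0.0577 to 0.188), and Kcnj8 without set 3 (FDR 0.0561).

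Contractile and actomyosin genes had mostly positive changes. Of 25 listed members, all tested, 1 (Mylk) passed the edgeR FDR in AII+NA against Control, where 0.0473% of all genes passed and were higher. Their median log2FC was 0.52, against -0.012 over all genes, and 16 of 25 were higher in all 4 sets. In the average over both media 17 of 25 rose and none fell, where 2.41% of all genes rose. Acta2, smooth muscle actin, was at 784, 341, 995 and 221 FPM in Control and at 1160, 673, 1780 and 1460 FPM in AII+NA. It was higher in each set, by a log2 ratio of 0.56, 0.98, 0.84 and 2.72 in sets 1 to 4, and the groups overlapped. Its log2FC was 1.24 ± 0.35 (edgeR FDR 0.213), and it rose by 1.27 ± 0.25 in the average (FDR 0.0125). Cnn1 (calponin 1) rose by 1.0 ± 0.18 in the average, Myl9, the regulatory light chain that Mylk phosphorylates, by 0.97 ± 0.18, Tagln by 0.89 ± 0.19 and Lmod1 (leiomodin 1) by 0.79 ± 0.17. Tagln was at 1.57 to 5.96 FPM, and 66.7% of its exon bases lie within exons of other genes, where reads may be lost to the count. The shared part was 35.1% for Cnn1, 36.5% for Ccn2 and 22.5% to 31.9% for Edn1, Ankrd1, Selp, Ramp2, Ednra, Syndig1 and Adm, named further on or above. Myh9, Flna, Actn1 and Vcl, which also serve non-muscle cells, rose by 0.39 ± 0.08, 0.49 ± 0.09, 0.41 ± 0.09 and 0.52 ± 0.12.

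The size of this change differed between animals. The median log2 ratio of the 25 genes was 0.31, 0.32, 0.36 and 1.12 in sets 1 to 4. Set 4 had the lowest smooth muscle marker sum in Control (343 FPM) and 1680 FPM with AII+NA, and its fibroblast marker sum was the highest, at 5360 FPM in Control and 4320 FPM with AII+NA. Acta2, itself among the 25 genes, made up most of the smooth muscle sum, so that sum is not separate from the contractile result. The part of these marker levels in the result was not tested. Without set 4, 2 of 25 passed in the average, and without set 2, 9 did. Calls also fell over all genes in these fits: of the 104 DEGs of the average, 23 remained without set 4 and 53 without set 2. The median log2FC of the list in AII+NA against Control was 0.34 without set 4 and 0.58 to 0.62 without another set. Myh10 and Mylk were the 2 members that passed without set 4 (edgeR FDR 0.00460 and 0.0184).

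**Figure D3:**
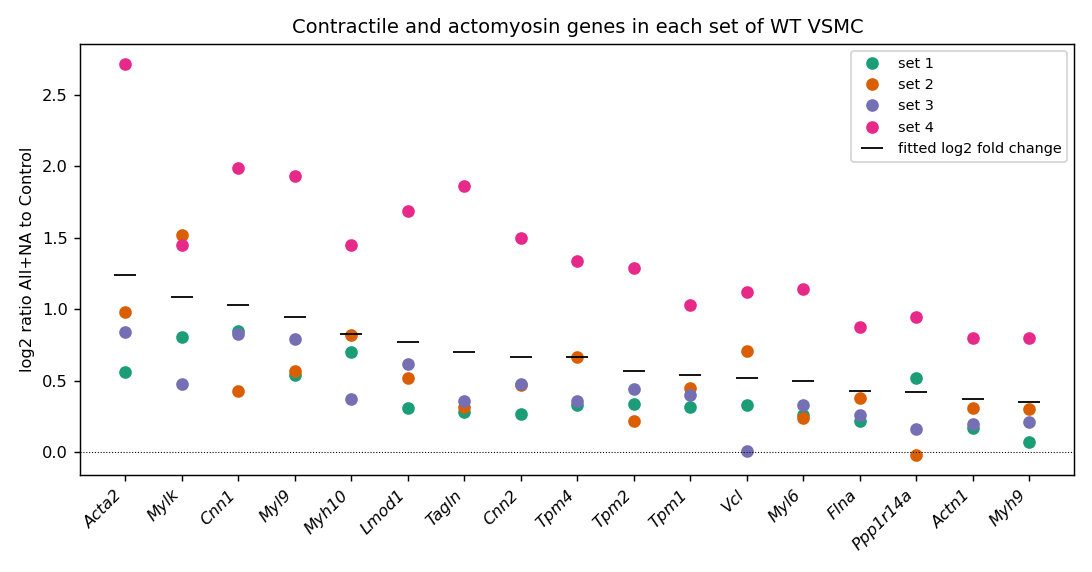
Log2 ratio of AII+NA to Control in each of the 4 sets (coloured points) and fitted log2 fold change (black bars) for the 17 contractile and actomyosin genes that rose in the average over both media. Set 4 is the highest point for 16 of the 17 genes, up to 2.72 for Acta2, and Mylk is the exception (1.52 in set 2, 1.45 in set 4).

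The promoters of these genes were searched because SRF and TEAD bind short known motifs. RefSeq promoter windows (GRCm38.p6, a build older than that of the gene coordinates above, 250 bases before to 50 after a start site) were found for 22 of the 25 genes. The CArG box, the SRF motif, was counted only in its strict form of CC, then A or T bases alone, then GG. This form was present in 4 of these 22 (Cnn2, Myl6, Myl9 and Vcl), or 18.2%, against 1.81% of all 27025 genes in the table. Looser forms were not counted. The Acta2 stretch printed below holds ccctatatgg and ccttgtttgg, which have a C or a G among the middle bases. A gene without a counted box may thus still hold an SRF site. The TEAD motif GGAATG, read on both strands, was present in 10 of 22, or 45.5%, against 16.6% of all genes, and the AP-1 motif TGANTCA in 9.09% against 8.97%. In the 11 of 15 YAP and SRF target genes with a window, GGAATG was found in 8, or 72.7%. Both lists hold genes of a kind that SRF or YAP and TEAD are known to drive. A high share there is thus not independent of how the lists were made. Of the 90 genes higher in the average over both media, 67 had a window, with GGAATG in 22.4% and a CArG box in 7.46%. Over the genes tested these shares were 14.8% and 1.62%. Of the 7 DEGs, 6 had windows, of which Mylk alone held GGAATG, Mylk and Hdac9 held TGANTCA and none held a CArG box. These matches describe the letters in the windows and are not binding sites. The 4 stretches printed here run from 250 bases upstream to the base before the start site and are a selection of the genes that hold a motif: the regulatory light chain, smooth muscle actin, the DEG Mylk and the YAP and SRF target with the largest log2FC. Capitals mark the CArG box in Myl9, GGAATG in Acta2 and at both places in Ankrd1, and in Mylk the reverse complement of GGAATG followed by TGANTCA.
Myl9, chr2:156775214-156775463, plus strand: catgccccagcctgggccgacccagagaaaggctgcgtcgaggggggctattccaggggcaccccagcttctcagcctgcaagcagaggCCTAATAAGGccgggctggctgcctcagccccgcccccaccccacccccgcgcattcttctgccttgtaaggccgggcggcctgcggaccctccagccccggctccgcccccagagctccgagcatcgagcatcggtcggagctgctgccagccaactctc
Acta2, chr19:34255374-34255623, minus strand: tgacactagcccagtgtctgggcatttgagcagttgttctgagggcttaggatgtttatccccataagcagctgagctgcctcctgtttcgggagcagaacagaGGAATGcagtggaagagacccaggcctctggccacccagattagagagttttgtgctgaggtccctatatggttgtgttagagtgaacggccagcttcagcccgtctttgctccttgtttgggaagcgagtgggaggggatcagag
Mylk, chr16:34784700-34784949, plus strand: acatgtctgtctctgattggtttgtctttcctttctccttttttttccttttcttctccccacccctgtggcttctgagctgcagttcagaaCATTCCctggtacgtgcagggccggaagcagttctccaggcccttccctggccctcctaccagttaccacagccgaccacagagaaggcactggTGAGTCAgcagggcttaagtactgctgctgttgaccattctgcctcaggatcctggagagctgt
Ankrd1, chr19:36119845-36120094, minus strand: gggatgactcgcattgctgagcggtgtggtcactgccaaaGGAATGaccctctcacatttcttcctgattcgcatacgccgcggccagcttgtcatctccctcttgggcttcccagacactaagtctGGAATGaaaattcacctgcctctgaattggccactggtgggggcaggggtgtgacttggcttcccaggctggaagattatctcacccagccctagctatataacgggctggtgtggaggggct
The first capital lies 161 bases upstream of the start in Myl9, 146 in Acta2, 158 in Mylk and 210 in Ankrd1.

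YAP and SRF target genes had mostly positive changes. None of the 15 members passed the edgeR FDR in AII+NA against Control, 13 had an unadjusted p under 0.05 in the higher direction (4.97% of all genes did), and the median log2FC was 0.48. In the average 9 of 15 rose and none fell, where 2.41% of all genes rose and 1.01% fell. Ankrd1, a muscle ankyrin-repeat protein, was at 14, 6.39, 81.1 and 5.03 FPM in Control and at 24.9, 18.4, 146 and 59.6 FPM in AII+NA. It was higher in each set, and the levels of set 3 exceeded those of every other set in both groups. Ccn2 (connective tissue growth factor) rose by 0.94 ± 0.19, Ccn1 by 0.81 ± 0.19, Tgfb2 by 0.54 ± 0.12, Thbs1 by 0.50 ± 0.11 and Amotl2 by 0.36 ± 0.08. Without set 2, 1 of 15 passed, and without set 4, 3 did. In those fits 53 and 23 of the 104 DEGs of the average remained. Srf and Mrtfa themselves rose by 0.39 ± 0.08 and 0.26 ± 0.06 (edgeR FDR 0.0125 and 0.0199), and neither passed without set 4. Mrtfa also missed the FDR without set 3 (0.0736).

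Matrix genes moved in both directions. Of 26 members, none passed in AII+NA against Control, and the median log2FC was -0.18. In the average 3 rose and 6 fell, where 1.01% of all genes fell. Tnc rose in all 4 sets from 183, 152, 296 and 155 FPM to 298, 286, 411 and 476 FPM, and Eln (elastin) and Lox, the enzyme that crosslinks collagen and elastin, rose by 0.83 ± 0.15 and 0.40 ± 0.08. Without set 4 Tnc still passed, and Eln and Lox did not (FDR 0.1 and 0.152). Col3a1, a fibrillar collagen, was at 3400, 3110, 930 and 7730 FPM in Control and at 2650, 2330, 930 and 3840 FPM in AII+NA and fell by 0.47 ± 0.10 in the average. Set 3 did not differ, and set 4 was the most changed. Col15a1 fell by 0.74 ± 0.14, Ogn by 0.50 ± 0.08 and Fbn1 by 0.34 ± 0.09, beside Aspn and Col6a3. None of the 6 passed without set 4, and without set 2 only Ogn did (edgeR FDR 0.0434). In those fits 23 and 53 of the 104 DEGs of the average remained. Of 8 fibroblast markers, 2 (Cd34 and Clec3b) also fell in the average (by 0.31 ± 0.08 and 0.38 ± 0.08) and none rose. Neither passed without set 2 (FDR 0.145 and 0.12) or without set 4 (FDR 0.594 and 0.249). Further, 1 of 8 endothelial markers, Cdh5, fell by 0.88 ± 0.17 and was at 22.8 and 16.5 FPM in set 2 and under 1 FPM in the other sets (FDR 0.234 without set 2). The part of these cell types in the matrix result was not tested.

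**Figure D4:**
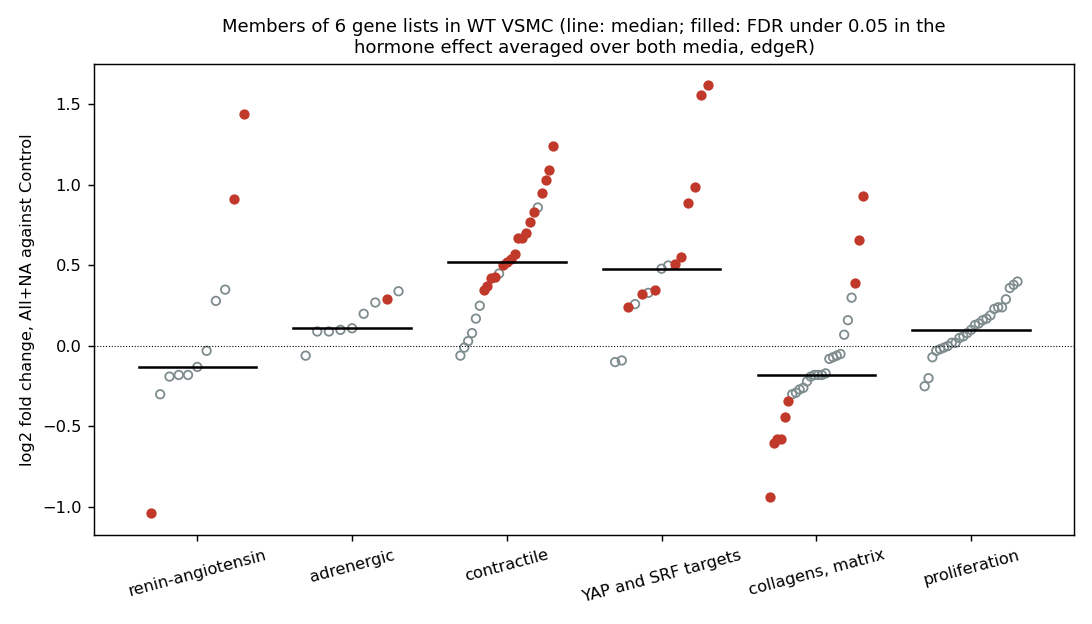
Log2 fold change of AII+NA against Control for each tested member of 6 gene lists, with the list median as a line and members past the edgeR FDR in the average over both media filled. Contractile genes (median 0.52) and YAP and SRF targets (median 0.48) lie mostly above 0, the filled renin-angiotensin points are Agtr1b, Agtr1a and Agtr2, and proliferation genes (median 0.10) hold no filled point.

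Further vasoactive and signalling genes were counted the same way in the average, where 2.41% of all genes rose and 1.01% fell. Counts of 1 in 13 to 15 genes are close to those shares. In the list of endothelin, natriuretic peptide and nitric oxide genes, Edn1 rose by 1.35 ± 0.24 and Npr3, the natriuretic peptide clearance receptor, by 0.39 ± 0.10, while Ednra, the endothelin receptor of smooth muscle, fell by 0.39 ± 0.07. Edn1 was at 6.08, 19.2, 11.5 and 8.31 FPM in Control and at 14.2, 43.8, 21.8 and 55.1 FPM in AII+NA, higher in every set. In the list of adrenomedullin and CGRP receptor genes, Ramp1 and Adm, the adrenomedullin gene, rose (Adm by 0.43 ± 0.11) and Ramp2, its receptor partner, fell by 0.47 ± 0.10. Adra1b rose by 0.42 ± 0.11 (edgeR FDR 0.0441) and lost the call when any 1 set was left out. Of the other genes named in this paragraph, Ramp1 and Rcan2 passed with each set left out in turn. Edn1 did not pass without set 4 (FDR 0.0649), and Npr3, Ednra, Adm, Ramp2, Cabin1, Mef2c, Dusp1 and Nrg1 passed neither without set 2 (FDR 0.0503 to 0.207) nor without set 4 (FDR 0.181 to 0.463). Rcan2, Cabin1 and Mef2c, of 15 calcineurin and NFAT genes, rose by 1.06 ± 0.19, 0.24 ± 0.06 and 0.46 ± 0.11. Dusp1, a MAP kinase phosphatase, rose by 0.54 ± 0.12 as the only 1 of 15 tested ERK feedback genes, and Nrg1, an ErbB ligand, rose by 0.46 ± 0.12 as the only 1 of 13 of the EGFR family. None of 25 proliferation genes, 19 NADPH oxidase and antioxidant genes or 19 fatty acid response genes passed the edgeR FDR in either direction. In these lists 4, 3 and 2 genes had an unadjusted edgeR p under 0.05, as did 17.8% of all genes.

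To see which changes set the hormones apart from the metabolic stressors, AII+NA was set against HG+FFA directly. This gave 142 DEGs (0.840%), with 77 higher (0.455%) and 65 lower (0.385%) in AII+NA. The count was 84 without set 3 and 63 without set 4. Of the 7 genes above, 6 were among them, the exception being Bmp3 (log2FC 0.14 ± 0.11, edgeR FDR 0.524). Bmp3 was at 72.7, 86.1, 31.4 and 139 FPM under HG+FFA, close to its AII+NA levels. Ramp1 was higher in AII+NA by 3.30 ± 0.47 (FDR 0.00261), Agtr1b by 1.39 ± 0.20 (FDR 0.00261) and Rgs3 by 0.79 ± 0.12 (FDR 0.00413). Agtr1a was higher by 0.92 ± 0.18 and Agtr2 lower by 1.29 ± 0.25 (both FDR 0.0158). Of the contractile genes 9 of 25 passed the edgeR FDR and were higher, as were 1.22% of all genes, and none was lower (1.23% of all genes), with Acta2 at 1.49 ± 0.35 (FDR 0.0379). The comparison shares the AII+NA libraries with AII+NA against Control.

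The same treatment of KO VSMC gave 0 DEGs among 17538 genes, with 1711 genes (9.76%) at an unadjusted edgeR p under 0.05 and 13 (0.0741%) called by DESeq2 alone. Egfr was at 33.1 to 39.4 FPM in the libraries of KO set 5 and at 0.521 to 1.96 FPM in the other KO sets, so the fits were repeated without set 5. A positive log2FC was seen in KO VSMC for 6 of the 7 genes, a share not counted over all genes. Of the 7, 5 were higher with an unadjusted edgeR p under 0.05 there, as were 3.92% of all genes. Without set 5 it was 4 of 7, since Agtr1b had an unadjusted edgeR p of 0.109 (log2FC 0.46). Bmp3 changed by 0.70 ± 0.12 (unadjusted edgeR p = 3.89e-05, and 0.72 without set 5), as in WT VSMC. Itga8 changed by 0.83 ± 0.17 and Hdac9 by 0.71 ± 0.20, Mylk by 0.60 ± 0.17 and Agtr1b by 0.61 ± 0.23. Ramp1 changed by 0.87 ± 0.43 (unadjusted edgeR p = 0.0573). Bmp3 and Itga8 passed the DESeq2 FDR in KO VSMC (0.000621 and 0.00399). Mylk, Hdac9, Agtr1b, Ramp1 and Rgs3 did not (lowest DESeq2 FDR 0.0599, for Mylk). Rgs3 was at 39.4, 37.0, 53.6 and 49.5 FPM in KO Control and at 46.4, 43.2, 47.4 and 37.5 FPM in KO AII+NA, with a log2FC of -0.04 ± 0.12. These KO libraries were higher in 2 sets and lower in the other two. In a joint model of both genotypes no gene passed an edgeR FDR of 0.05 for a different hormone effect (2182 genes, 11.9%, had an unadjusted p under 0.05, and DESeq2 called 12, or 0.0654%). Rgs3 had the smallest p of the 7, with a difference of 0.87 ± 0.18 (unadjusted p = 5.68e-05, edgeR FDR 0.395, DESeq2 FDR 0.00363), and 0.95 without KO set 5 (FDR 0.0610). The difference was 1.96 ± 0.66 for Ramp1, 0.91 ± 0.32 for Hdac9, 0.84 ± 0.31 for Agtr1b, 0.79 ± 0.33 for Itga8, 0.51 ± 0.27 for Mylk and -0.02 ± 0.17 for Bmp3 (unadjusted edgeR p = 0.00673, 0.00947, 0.0112, 0.0227, 0.0719 and 0.899). Without KO set 5 these differences were 1.96, 0.86, 0.99, 0.56, 0.35 and -0.05 (unadjusted edgeR p = 0.0125, 0.0252, 0.00664, 0.109, 0.25 and 0.804), so that of Itga8 was no longer under 0.05. The 7 genes had been chosen by their effect in WT VSMC, which raises the WT side of each difference. Agtr1a was at 0.0978 to 1.70 FPM in KO Control, against 4.69 to 16.9 FPM in WT Control, normalised separately for each genotype and not tested between them, and its hormone effect in KO VSMC was 1.31 ± 0.39 (unadjusted p = 0.00389).

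**Figure D5:**
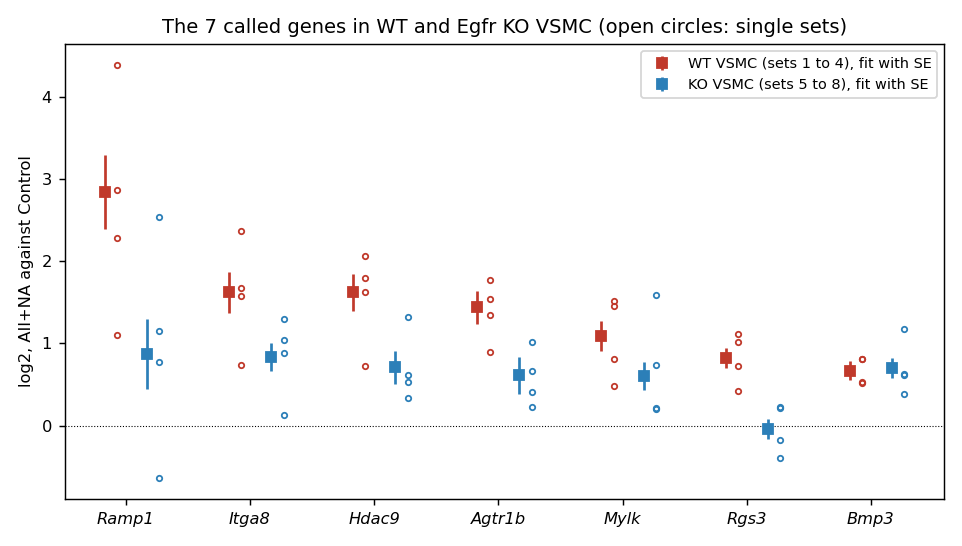
Log2 change of the 7 DEGs with AII+NA against Control in WT VSMC (red) and KO VSMC (blue), with squares and SE bars for the fit and open circles for single sets. Bmp3 is alike in both (0.67 and 0.70), and Rgs3 is at 0.82 in WT and at -0.04 in KO.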

How the data were processed

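Poly(A) RNA of each culture was sequenced as paired-end reads. The authors mapped the reads to mm39 with HISAT2 (2.1.0) and deposited raw counts per gene, made with featureCounts with multi-mapped reads counted (-M). The strand setting is not given in the sources used here, so reads of a gene and an overlapping antisense gene cannot be told apart. Of 56953 gene identifiers, 56310 were found in GENCODE vM39, and the others held 0.024% of counts. WT VSMC libraries held 23626664 to 37801299 counts.

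The 16 WT VSMC libraries were fitted together on the deposited counts in R 4.3.3 with the set as a block: edgeR 4.0.16 (filterByExpr, TMM, quasi-likelihood test) and DESeq2 1.42.0 (Wald test), each with Benjamini-Hochberg adjustment over all genes. Log2FC and SE are those of edgeR. FPM used the TMM library size, and ratios of a single set used a pseudocount of 0.1 FPM. KO VSMC were fitted alike, and the 2 genotypes jointly for the difference. Labels give the same animal for equal set numbers. Over 11967 genes, the deviations of same-set libraries correlated at 0.818 on average (lowest 0.495), and those of other pairs at -0.26. The negative value follows from taking deviations from each condition's own mean and adds no further information on pairing. No libraries were duplicates (mean chi-square per gene at least 45.9). Each set is 1 mouse and was fitted as a block. The p-values thus rest on the spread left within sets, pooled over the 4 conditions, and not on differences in level between animals.

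The comparison, members and gene lists were chosen with earlier results of these data known. Genes were named if they were DEGs, if only 1 tool called them (up to 10 per direction, alike in 4 sets), if they were DEGs of the averaged effect (up to 10 per direction, alike in 8 pairs), if they were list members past the edgeR FDR or up to 4 further members per list, or if they were receptors of the hormones or Egfr. Other names are said to have been chosen after their values were seen. Counts of AII+NA against Control were also simulated for 16678 genes. Of 200 genes given a log2FC of 0.75, 82.5% were called, and of 200 given 1.5, 100% were, with 7 false calls. Recovery of effects that differ in size between sets, as those of Acta2 and Ramp1 did, was not tested. These shares are thus not the power for such genes. Nor are they the power of AII+NA against Control for changes of equal size in all sets. The simulation changed 200 genes at each size, whereas 9 genes passed the edgeR FDR in the data. The FDR adjustment is more lenient when more genes change, so the simulated shares may be too high for these data. Alternatives were another tool, scaling, filter, fold limit and set of libraries, no block, and each set left out. Leaving sets out for gene lists and for the DESeq2 count was added after the data were seen. Some named genes and markers are not reported here.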

Additional observations from a re-analysis of the deposited data

Results flagged for a closer look

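In 97 named genes, the log2 ratio of AII+NA to Control was compared between the 4 sets of WT VSMC, and in 7 of them a single set stood apart from the other three by Dixon's test. Chance alone would mark about 1 in 20 genes. Set 4 was the high one in 5 of the 7. Its log2 ratio was 1.21 for the alpha-1 receptor gene Adra1d (0.07 to 0.11 in the other sets) and 2.71 for Edn1 (0.92 to 1.21). It was 1.86 for Tagln (0.28 to 0.36), 1.5 for Cnn2 (0.27 to 0.48) and 1.14 for Myl6 (0.24 to 0.33), all genes of the contractile apparatus. Agtr2 stood apart in set 3, at -1.66 against -0.89 to -0.84, where its level was 0.606 FPM in Control and 0.124 FPM in AII+NA. Syndig1 stood apart in set 2, at -0.36 against -0.97 to -0.89.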

How the results depend on the processing

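The 7 DEGs of AII+NA against Control became 61 with DESeq2 alone, 56 with no count filter, 48 in a fit of the 8 libraries compared, and 0 to 13 with a set left out. The 5 DEGs of ALL against HG+FFA became 64, 61 and 0 in the same 3 fits and 0 to 10 with a set left out. Averaged over both media, 104 DEGs became 529 with no fold limit and 23 to 160 with a set left out. The difference between media went from 0 to 70 genes with no count filter. AII+NA against HG+FFA gave 63 to 134 DEGs with a set left out. DESeq2 alone called 13 genes in KO VSMC and 7 for the difference between genotypes with the other criteria kept, against 0 in each. With a set left out, 2 to 18 contractile genes, 1 to 11 YAP and SRF targets and 0 to 8 lower matrix genes passed in the average, and DESeq2 called 15 to 92 genes in AII+NA against Control. The cause was not tested.

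Without the replicate block, which ignores that each set is 1 animal, there were 0 DEGs in AII+NA against Control (272 genes at an unadjusted edgeR p under 0.05, smallest FDR 0.268, and 5 called by DESeq2 alone), 0 in ALL against HG+FFA, 2 in the average and 0 in AII+NA against HG+FFA. Of 72 values of the 9 genes past the edgeR FDR under alternatives, 33 stayed past it, 39 did not and 0 changed sign. For 90 other named genes, 74 of 720 values came past it and 0 changed sign. DESeq2 size factors shifted the median log2FC of all genes by 0.012. With 4 pairs, genes below a few FPM rest on few reads, and a change that missed the FDR is not shown to be absent.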

Other observations

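In the average over both media, single genes of growth, lipid and immune lists passed the edgeR FDR. Sqle, an enzyme of cholesterol synthesis, rose by 0.51 ± 0.08 (FDR 0.00430) as the only 1 of 20 genes of that pathway, and stayed past the FDR with each set left out. Igfbp2, an IGF-binding protein, rose by 0.45 ± 0.08 and Igf1 fell by 0.43 ± 0.08, in a list of 23 growth factor genes. Neither passed without set 4 (FDR 0.161 and 0.198), nor did Igfbp2 without set 3 (FDR 0.0629) or Igf1 without set 2 (FDR 0.0724). Nfil3 was at 22.5, 21.3, 20.0 and 21.7 FPM in the Control libraries of sets 1 to 4 and at 34.7, 48.7, 30.7 and 86.6 FPM in AII+NA, with no overlap. It was the only 1 of 17 circadian clock genes to pass, and the median log2FC of that list was -0.08 in AII+NA against Control.

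The 21 tested inflammatory cytokine and adhesion genes had a median log2 ratio of AII+NA to Control of 0.79 in set 2 and of -0.09, 0.02 and 0.00 in sets 1, 3 and 4. Set 2 also had the highest endothelial marker sum, at 61.5 FPM in Control and 49.3 FPM in AII+NA. The leukocyte markers had their largest median log2 ratio there (0.47, against -0.24, 0.22 and 0.07 in sets 1, 3 and 4). Their sum in set 2 was 123 FPM in Control and 132 FPM in AII+NA, and it was highest in set 1 (229 and 207 FPM). The part of these marker levels in the inflammatory values was not tested. Csf1, the macrophage growth factor gene, was the only member to pass in the average (rose by 0.35 ± 0.09, FDR 0.0480), and it did not pass without set 2, 3 or 4. Fabp4, a lipid-binding protein on the adipocyte list, was at 168 FPM in Control of set 3 and at 11.8 to 14.4 FPM in the other Control libraries, and rose by 0.86 ± 0.18 in the average (FDR 0.077 without set 2 and 0.115 without set 4).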
